A study of Mus musculus with 64 samples.

Results

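The subcortical maternal complex genes analysed here were Nlrp5, Ooep, Tle6, Khdc3, Padi6, Zbed3, Nlrp2 and Nlrp4f. They were chosen by name, 8 of the 23338 genes in the count tables, and all 8 had a row, Khdc3 under an older symbol. Their reads were followed across 64 mouse libraries of the C57BL/6 strain (C57BL/6 J in the study's methods). These were 12 single eight-cell embryos at 2.5 dpc from natural mating (6 male, 6 female), 4 ES cell lines (2 male, 2 female), 24 late-gestation fetal livers and 24 livers of adults aged 15 to 20 weeks (12 male and 12 female each). The ES lines had themselves been derived from eight-cell embryos and were kept in 2i medium, which holds the inhibitors PD0325901 and CHIR99021, with LIF. The labels give no genetic alteration and no treatment other than this medium. Each embryo library held all cells of 1 embryo with the zona removed, and was made by oligo-dT priming and PCR amplification of the cDNA, whereas ES and liver libraries were made from total RNA with a stranded kit. Stage and library protocol therefore cannot be told apart in any comparison of embryos with the other samples. Embryo sex was assigned by the study from the expression of sex-linked genes. The embryos came from several litters, and which embryo came from which litter is not given in the sources used here.

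The subcortical maternal complex is a protein assembly that lies under the plasma membrane of the egg and of the outer cells of the cleaving embryo. Its genes are transcribed in the growing oocyte, and embryos of mothers that lack a core component arrest at the first cleavages. Maternal transcripts of such genes are cleared as the embryo begins to transcribe its own genome, while the proteins can persist longer.

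Reads assigned to genes numbered 4659656 to 7725432 per embryo, 9857929 to 10386931 per ES line, 5145371 to 8499603 per fetal liver and 1567583 to 4757610 per adult liver. Levels are given as CPM, counts scaled to the library's total of reads on genes. A count of 0 in 1 embryo allowed a level of up to 0.388 to 0.644 CPM, which is the value of 3 reads, and covers counting error only. Male embryo 3 had the fewest reads and is given separately where it matters. The labels were checked against marker genes. All 8 pluripotency markers (Pou5f1, Nanog and others) had reads in embryos and ES lines, summing to 709 to 2170 CPM per embryo. Hepatocyte markers summed to at least 31740 CPM in every liver. The 6 oocyte markers (such as Zp3 and Gdf9) summed to 78.5 to 185.8 CPM per embryo and 6.51 to 21.7 CPM per ES line, while all 7 cumulus and granulosa markers were at 0 in all 12 embryos. Erythroid markers summed to 43.08 to 210.3 CPM per embryo, which overlaps the range of the oocyte markers. Of these 6 erythroid markers, 3 were at 0 in every embryo and 1 averaged at least 1 CPM. Hepatocyte markers summed to 0.287 to 67.5 CPM per embryo. Why such markers had reads in embryos was not tested. In such bulk samples, fewer cells holding a transcript and less of it per cell cannot be told apart.

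Windows before the RefSeq start, taken as promoters, are shown for 4 members whose genes took opposite directions between embryos and ES lines. Nlrp5 and Padi6 were higher in embryos, Ooep and Nlrp4f in ES lines. Each line gives the 250 bases before the most upstream RefSeq start on GRCm38.p6, 5′ to 3′ on the strand of the gene. Capitals mark E-boxes, the letters CANNTG that basic helix-loop-helix factors such as the oocyte factor FIGLA can bind and that read the same on both strands.
Nlrp5: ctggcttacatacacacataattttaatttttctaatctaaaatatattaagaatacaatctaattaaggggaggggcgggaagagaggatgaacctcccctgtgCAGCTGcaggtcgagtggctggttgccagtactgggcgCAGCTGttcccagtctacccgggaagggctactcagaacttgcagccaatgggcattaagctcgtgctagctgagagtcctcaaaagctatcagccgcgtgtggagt
Padi6: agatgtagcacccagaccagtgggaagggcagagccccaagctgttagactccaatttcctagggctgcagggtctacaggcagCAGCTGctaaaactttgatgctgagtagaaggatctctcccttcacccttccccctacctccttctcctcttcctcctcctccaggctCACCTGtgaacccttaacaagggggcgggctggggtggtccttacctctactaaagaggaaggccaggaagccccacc
Ooep: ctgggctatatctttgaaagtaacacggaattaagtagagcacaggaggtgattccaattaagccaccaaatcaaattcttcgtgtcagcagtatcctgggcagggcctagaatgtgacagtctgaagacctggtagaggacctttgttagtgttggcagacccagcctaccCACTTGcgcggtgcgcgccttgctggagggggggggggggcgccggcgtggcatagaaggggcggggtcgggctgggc
Nlrp4f: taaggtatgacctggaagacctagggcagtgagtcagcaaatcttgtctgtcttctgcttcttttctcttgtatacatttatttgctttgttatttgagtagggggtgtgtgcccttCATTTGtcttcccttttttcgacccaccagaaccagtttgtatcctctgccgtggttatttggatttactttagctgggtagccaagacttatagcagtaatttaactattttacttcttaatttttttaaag
These windows lie at chr7:23385639-23385888 on the plus strand for Nlrp5, chr4:140742644-140742893 on the minus strand for Padi6, chr9:78378589-78378838 on the minus strand for Ooep and chr13:65205717-65205966 on the minus strand for Nlrp4f. Nlrp5 and Padi6 each held 2 E-boxes, and Ooep and Nlrp4f each held 1. Of the members not shown, Khdc3 held 5, Zbed3 held 3, Tle6 held 2 and Nlrp2 held 0. Among 32851 such windows of all genes, 66.2% held at least 1 E-box. The letters TAATTA, a binding element of the oocyte factor NOBOX, were present in the window of Nlrp5 and in none of the other 7 members, against 4.84% of all windows. No other letters that NOBOX may bind were searched, so the other windows are not shown to lack such an element. The Ooep window held 11 CpG dinucleotides and that of Nlrp5 held 7, whereas Padi6 held 1 and Nlrp4f held 2, beside a median of 6 over all windows. The windows of Nlrp4f and Khdc3 lie wholly inside the span that GENCODE gives for the gene, and those of Ooep and Tle6 partly inside it. For these members the RefSeq start used lies downstream of the GENCODE start. Such matches describe the letters only.

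On GRCm38, Nlrp5 lies at chr7:23385889-23441922 and Nlrp2 at chr7:5298547-5351035, Ooep at chr9:78376109-78378725 and Khdc3 at chr9:73101836-73104438, Tle6 at chr10:81590904-81601073, Padi6 at chr4:140727355-140742643, Zbed3 at chr13:95323612-95337841 and Nlrp4f at chr13:65177111-65205977. All 8 are annotated as protein coding in GENCODE, and reads were counted over their exons. Of all 50-base stretches in the Khdc3 transcripts, 34.1% also occur in Gm20509, an annotated gene that overlaps Khdc3 on the same strand. Bases in an overlap are 1 place in the genome, so reads there do not align to more places for that reason. Gm20509 has no row in the count tables. Whether reads of the shared part counted as Khdc3 depends on the annotation the authors used. For the other 7 members, at most 6.55% of the stretches occur in transcripts of another gene. For Nlrp5 these were mostly in the pseudogene Nlrp5-ps, and for Nlrp4f mostly in its relative Nlrp4g. Reads that aligned to more than 1 place were not counted.

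In eight-cell embryos, Khdc3 and Padi6 were the most abundant members both in CPM and per transcript length, Tle6 and Nlrp5 followed, and Ooep, Nlrp4f, Zbed3 and Nlrp2 were low. In ES lines, Ooep and Nlrp4f led instead, at a mean of 111 and 86.1 CPM. In livers, Zbed3 had reads in all 48 libraries and Tle6 in all but 1 adult liver. Khdc3 had reads in all 24 fetal livers, at a mean of 0.662 CPM, and 1 read over the adult livers, and the other 5 members were at or near 0 in both.

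Nlrp5 encodes the NOD-like receptor family protein MATER, a scaffold of the complex. It had 7 to 259 reads in each of the 12 embryos, or 1.30 CPM in the lowest, 13.7 in the median and 48.6 in the highest. The 4 ES lines held 2, 1, 0 and 2 reads, the 24 fetal livers 5 reads in all, and the 24 adult livers 0. Every embryo lay above every library of the other stages. By edgeR's quasi-likelihood test, the log2 fold change of embryos over ES lines was 7.37 ± 1.17 (SE, n = 12 and 4, adjusted p = 4.72e-05), and over fetal liver 8.55 ± 0.45 (n = 12 and 24, adjusted p = 1.95e-19). Against adult liver, where no read was found, Nlrp5 was at least 418-fold higher, taking 3 reads over the 24 libraries as the floor.

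Ooep encodes FLOPED, a KH-domain protein that joins MATER and TLE6 in the core of the complex. Embryos 1 to 12 held 0, 6, 19, 19, 59, 0, 0, 29, 45, 29, 22 and 22 reads of Ooep, a mean of 3.56 ± 3.19 CPM (SD, n = 12). The 2 male ES lines had 62.5 and 68.2 CPM and the 2 female lines 170 and 143 CPM. All ES lines were thus above all embryos, and the log2 fold change of embryos over ES lines was −4.47 ± 0.85 (adjusted p = 2.61e-04). In fetal livers, 19 of 24 libraries had 0 reads and the 24 together had 5, while adult livers had 0. Ooep did not pass the filter on low counts in the comparisons of embryos with livers. Its pooled level in embryos was 111 times that in fetal liver (95% counting interval 46.8 to 344) and at least 75.5-fold higher than in adult liver. Counting intervals, here and below, rest on reads pooled over libraries and leave out the spread between libraries.

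Tle6, a member of the Groucho family of co-repressors, completes the core. Its level in embryos ran from 0.644 CPM in male embryo 3, with 3 reads, to 39.1 CPM, with a median of 23.5 CPM. The next lowest embryo had 63 reads and 11.2 CPM, so embryo 3 stood apart. The ES lines had 7.32, 4.96, 6.70 and 9.13 CPM, all below every embryo but embryo 3. The log2 fold change over ES lines was 2.05 ± 0.67 (adjusted p = 0.0150). Without embryo 3, the log2 fold change was 2.16 (adjusted p = 5.47e-04), and without male ES line 2 it was 1.88 (adjusted p = 0.0521), which is above the threshold of 0.05. Tle6 was also read in all 24 fetal livers (0.828 to 3.96 CPM) and in 23 of 24 adult livers (up to 3.63 CPM). Embryos were higher than fetal liver by 3.39 ± 0.26 on the log2 scale (adjusted p = 7.90e-15) and higher than adult liver by 3.25 ± 0.33 (adjusted p = 1.30e-11).

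**Figure D1:**
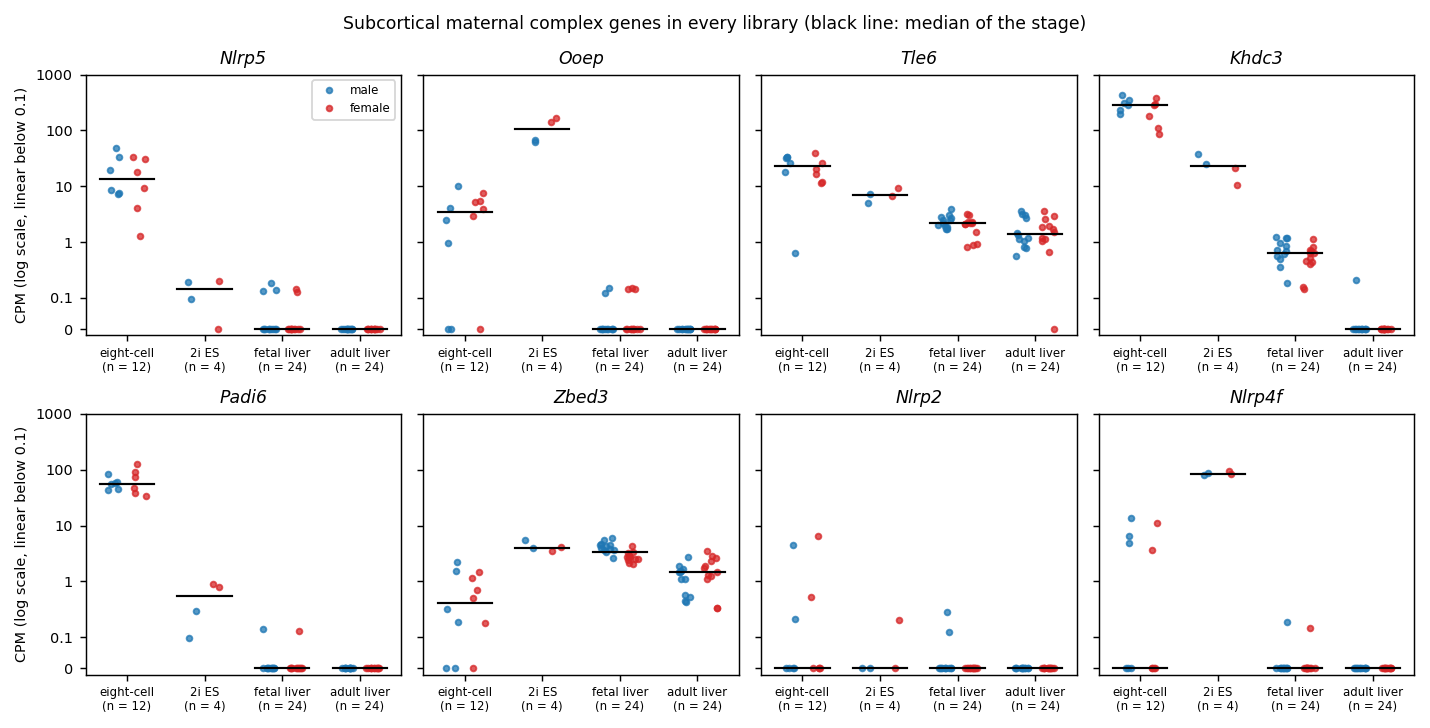
CPM of the 8 complex genes in each library (vertical axis, log scale that is linear below 0.1 CPM) by stage (horizontal axis), with males in blue, females in red and the median of each stage as a black line. Nlrp5, Khdc3 and Padi6 sit highest in the 12 embryos, Ooep and Nlrp4f in the 4 ES lines, and Zbed3 lies lowest in embryos by the median.

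Khdc3 encodes FILIA, a KH-domain protein of the complex also known for a role in genome stability. It was the most abundant member in every embryo, with 599 to 2726 reads, and 86.0, 284 and 434 CPM in the lowest, median and highest embryo. In the ES lines it was at 24.8, 37.2, 21.3 and 10.55 CPM, below every embryo. The log2 fold change over ES lines was 3.91 ± 0.43 (adjusted p = 6.48e-07). All 24 fetal livers had reads of Khdc3, at 0.145 to 1.255 CPM, and embryos were higher by 8.62 ± 0.21 on the log2 scale (adjusted p = 2.53e-30). In adult livers 1 read was found in 24 libraries, and the pooled level in embryos was 17231 times that of adult liver, with a wide 95% counting interval of 3092 to 680617.

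Padi6 encodes a peptidylarginine deiminase-related protein needed for the cytoplasmic lattices of the egg. Its 251 to 698 reads per embryo corresponded to 34.1 CPM in the lowest embryo, 56.5 in the median and 124 in the highest, which was female embryo 12. Padi6 had 1, 3, 8 and 9 reads in the ES lines (0.0963 to 0.913 CPM). Embryos and ES lines did not overlap, with a log2 fold change of 7.32 ± 0.56 (adjusted p = 8.75e-09). Only 2 reads were found in the 24 fetal livers and none in the adult livers. The pooled level in embryos was 4964 times that in fetal liver (95% counting interval 1374 to 41006) and at least 1353-fold higher than in adult liver.

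Zbed3, an Axin-interacting zinc finger protein tied to spindle positioning in the zygote, had its lowest mean level in embryos. Embryos held 0 to 13 reads, a mean of 0.692 ± 0.738 CPM, and 3 of 12 embryos had 0. Levels in ES lines were 3.95, 5.54, 4.10 and 3.55 CPM, above all 12 embryos. The log2 fold change of embryos over ES lines of −2.19 ± 1.00 did not pass the threshold (adjusted p = 0.0692), but did under 4 of 13 alternatives, where it ranged from −3.65 to −2.06 over all 13. Fetal livers had 2.02 to 6.02 CPM, and embryos were lower by a log2 fold change of −2.19 ± 0.36 (adjusted p = 9.36e-07). Adult livers had 0.338 to 3.565 CPM. Adult over fetal liver gave −0.71 ± 0.18 (adjusted p = 2.70e-04), which is short of the fold threshold. ES lines and fetal livers overlapped, and their log2 fold change of 0.16 ± 0.17 did not pass (adjusted p = 0.354).

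Nlrp2 and Nlrp4f encode NOD-like receptor family relatives of MATER found with the complex. Nlrp2 had 34 reads in male embryo 4 and 38 in female embryo 9, 3 in embryo 12, 1 in embryo 3 and 0 in the other 8 embryos. The ES lines had 2 reads in all, the fetal livers 3 and the adult livers 0. Nlrp2 passed the filter in none of the comparisons and was not tested. Its pooled level in embryos was 21.04 times that in ES lines (95% counting interval 5.63 to 177) and rested on those 2 embryos.

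Nlrp4f had 85, 50, 33, 20 and 82 reads in embryos 2, 4, 6, 10 and 11, and 0 reads in the other 7. No embryo had a count between 0 and 20. The 4 ES lines were at 78.9, 86.2, 83.7 and 95.8 CPM, a narrow range of 1.21-fold from the lowest to the highest line. All 4 lay above the highest embryo at 13.8 CPM, and the log2 fold change of embryos over ES lines was −4.37 ± 1.24 (adjusted p = 0.00601). Fetal livers held 2 reads in all and adult livers 0. The pooled level in ES lines was 6974 times that in fetal liver (95% counting interval 1929 to 57612).

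Counted over the 8 members, 7 could be tested in embryos against ES lines. Khdc3, Nlrp5, Padi6 and Tle6, 4 of 7, were called higher in embryos, beside 21.5% of all 12478 genes tested. Ooep and Nlrp4f, 2 of 7, were called lower, beside 31.4% of all genes. A gene was called at an adjusted p under 0.05 and an absolute log2 fold change above 1. Against fetal liver the same 4 genes were called higher among 5 tested (23.4% of 13631 genes) and Zbed3 was called lower (51.1% of genes). Against adult liver the same 4 were called higher and were the only members tested (28.7% of 11967 genes). Between ES lines and fetal liver, Khdc3, Nlrp4f, Ooep and Tle6, 4 of 5 tested, were called higher in ES lines (23.8% of 14333 genes). Between adult and fetal liver, neither Tle6 nor Zbed3 was called, while 43.1% of 12875 genes were (2512 higher and 3034 lower in adult liver, or 1490 and 4781 when scaled by library totals). The members that were tested had passed a filter on low counts, and a gene that is high in 1 group can pass through that group alone.

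The median log2 fold change of the 7 members tested between embryos and ES lines was 2.05, beside −0.44 over all genes. It was 8.55 over 5 members against fetal liver (−1.12 over all genes) and, with genes at 3 or fewer reads held at their pooled ratio or bound, 9.55 over 4 members against adult liver (−0.77 over all genes). Against adult liver, Nlrp5, Khdc3 and Padi6 passed the filter through the embryos alone, and Zbed3, lower in embryos, was not tested. The medians against the livers therefore describe the members that passed and not the whole set. Over the 5 members tested between ES lines and fetal liver the median was 4.91 (−0.03 over all genes). Ooep and Nlrp4f passed the filter there through the ES lines alone, and Nlrp5, Padi6 and Nlrp2 were not tested. This median too describes only the members that passed. Over the 2 members tested between adult and fetal liver the median was −0.25 (−0.05 over all genes). Scaling by library totals instead of TMM moved the median of all genes to −0.83 for embryos over ES lines, to −0.30 for embryos over adult liver, to −0.61 for adult over fetal liver and to 0.11 for ES lines over fetal liver. DESeq2 size factors moved it to −0.79, −1.23 and −0.14 in the first 3 of these comparisons, and to −1.55 for embryos over fetal liver. None of the called members changed direction under these scalings. The comparisons with embryos share the same 12 embryo libraries, so their values stand side by side and are not independent.

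**Figure D2:**
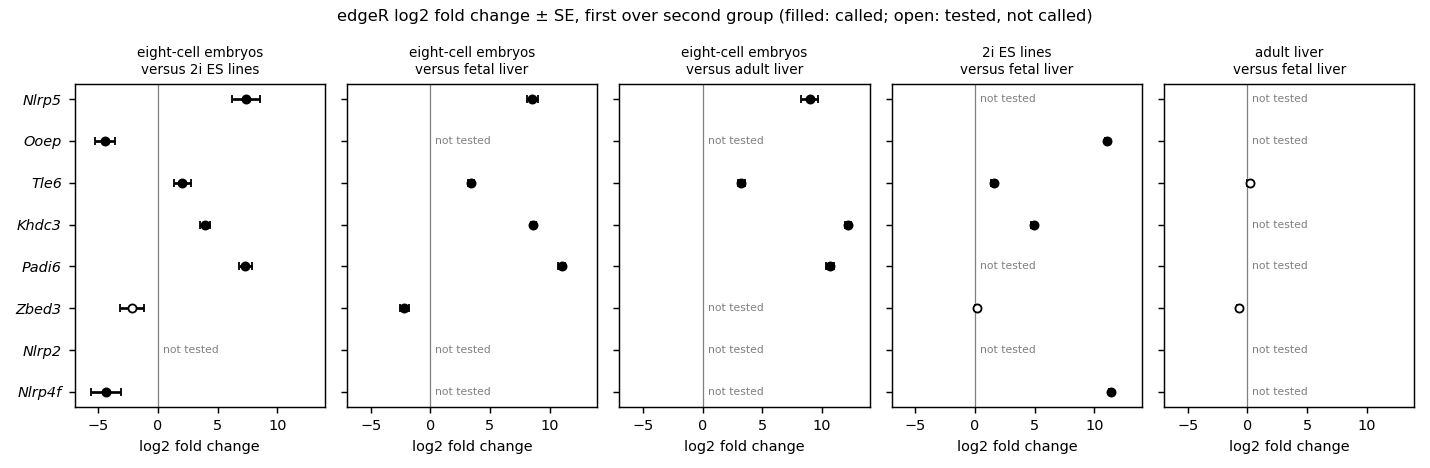
Log2 fold change of each member by edgeR, first group over second (horizontal axis), with its SE as bars, in 5 comparisons of stages. Filled points were called, open points were tested but not called, and members that did not pass the filter are marked as not tested. Ooep and Nlrp4f lie left of 0 in embryos versus ES lines and at 11.07 and 11.39 in ES lines versus fetal liver.

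Levels were also divided by the length of the annotated exons. A comparison between members on this scale assumes that reads spread evenly over the exons. For the embryo libraries, primed with oligo-dT, this was not tested, so the order there is a description only. In embryos, Khdc3 led with 128 ± 51.7 CPM per kb (SD, n = 12), then Padi6 with 24.9 ± 10.4 and Tle6 with 7.28 ± 3.66. Khdc3 exceeded Padi6 and Padi6 exceeded Tle6 within each of the 12 embryos. Tle6 exceeded Nlrp5 (3.82 ± 3.06 CPM per kb) in 9 of 12 embryos, and Nlrp5 exceeded Ooep (1.67 ± 1.49) in 7 of 12, so the order of these neighbours lies within the spread. In ES lines Ooep led with 51.9 ± 25.2 CPM per kb (n = 4), followed by Nlrp4f with 22.3 ± 1.8 and Khdc3 with 11.5 ± 5.4, each above the next in all 4 lines. Nlrp5, whose protein binds that of Ooep in the egg, stood at 0.0254 ± 0.0196 CPM per kb in the same lines. In fetal liver Zbed3 (1.58 ± 0.48 CPM per kb, n = 24) exceeded Tle6 (0.711 ± 0.241) in 23 of 24 livers, and in adult liver in 12 of 24.

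Between single embryos the members did not vary alike. The coefficient of variation (SD over mean) was 0.404 for Khdc3, 0.416 for Padi6, 0.503 for Tle6 and 0.801 for Nlrp5, beside a median of 0.394 over the 7036 genes that averaged 10 CPM or more in embryos. Spread falls with abundance, so each was set beside genes within 1.5-fold of its mean. Khdc3 varied more than 94.6% of 778 such genes, whose median was 0.243, and Nlrp5 more than 83.2% of 1650 genes, whose median was 0.595. Padi6 exceeded 65.0% and Tle6 36.3% of their like. The highest embryo held 5.05 times the lowest for Khdc3, 3.64 times for Padi6, 37.35 times for Nlrp5 and 60.8 times for Tle6. Without male embryo 3, the ratio for Tle6 was 3.49 and its coefficient of variation 0.385, while the ratio for Nlrp5 stayed at 37.35. The lowest Nlrp5 level was in female embryo 10 with 7 reads, an embryo that had the second highest Khdc3 level, 384 CPM. Ooep, Zbed3, Nlrp4f and Nlrp2 had a coefficient of variation of 0.896, 1.07, 1.46 and 2.21 and were at 0 reads in 3, 3, 7 and 8 of 12 embryos.

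No embryo was low or high for all members. The summed level of the 8 genes ran from 171 CPM in female embryo 7 to 505 CPM in male embryo 3, with a median of 392 CPM and a coefficient of variation of 0.270. Khdc3 made up 46.4% to 86.0% of that sum. Embryo 3 had the highest Khdc3 level of all and the lowest Tle6 level. The 3 embryos without a read of Ooep, embryos 1, 6 and 7, were the 3 with the highest Nlrp5 levels, at 48.6, 33.2 and 32.7 CPM, and embryo 8 followed with 31.35 CPM of Nlrp5 and 5.26 CPM of Ooep. This pair was picked from all pairs of the 8 genes after seeing the values, and no link was tested. Male embryo 4 alone had at least 3 reads of each of the 8 genes, and between 5 and 8 members had a read in any embryo. Because the libraries were amplified from little RNA and carry no molecular identifiers, reads are not independent molecules. How much of this spread arose in amplification was not tested.

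**Figure D3:**
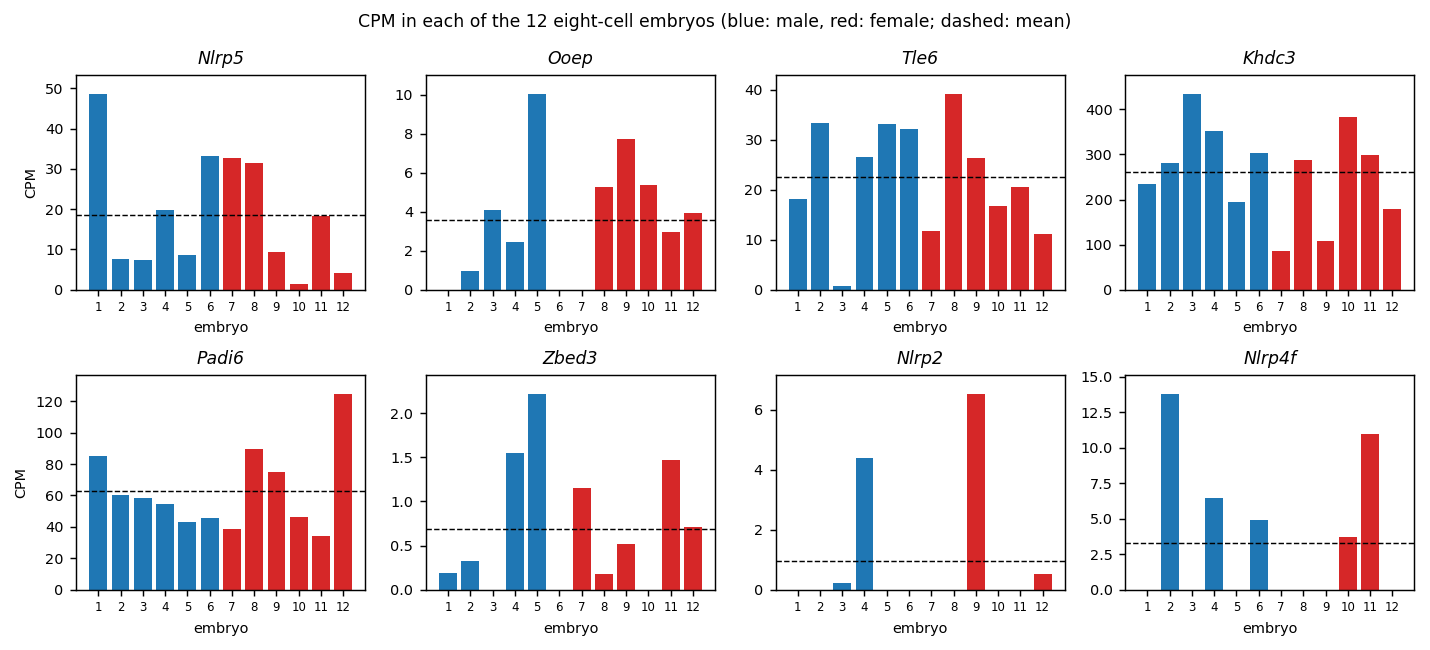
CPM of each member (vertical axis, a separate scale per panel) in the 12 eight-cell embryos (horizontal axis), males in blue and females in red, with the mean as a dashed line. Khdc3 and Padi6 are present in every embryo, while Nlrp4f is at 0 in 7 and Nlrp2 at 0 in 8 of 12 embryos.

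**Figure D4:**
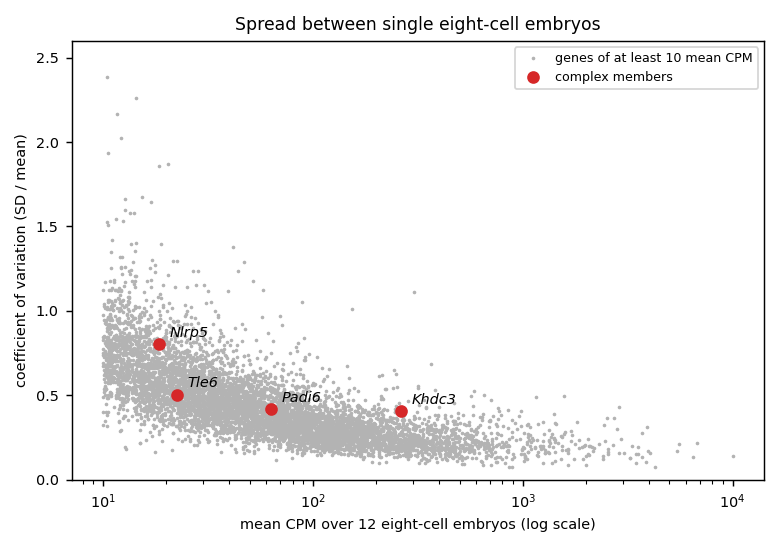
Coefficient of variation over the 12 eight-cell embryos (vertical axis) against the mean CPM (horizontal axis, log scale) for 7036 genes in grey, with the 4 members of at least 10 mean CPM in red. Khdc3 lies at the upper edge of genes of its abundance with 0.404, and Nlrp5 is the most variable of the 4 with 0.801.

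The ranks of the 4 abundant members over the embryos were also set side by side, as a description over 12 libraries that share depth and amplification. Spearman's rho was 0.30 between Nlrp5 and Tle6, −0.21 between Nlrp5 and Khdc3, −0.15 between Khdc3 and Padi6, −0.13 between Nlrp5 and Padi6, −0.03 between Tle6 and Khdc3 and 0.02 between Tle6 and Padi6. Among 7035 genes ordered by likeness to Nlrp5, Tle6 was at place 1739, and no member stood nearer to another than place 1599. The genes most like Nlrp5 were Nucb2, Mlxipl and Wdr85 (rho 0.91, 0.90 and 0.89), those most like Tle6 were Lrrc41, Rrp8 and Pias2 (0.94, 0.88 and 0.87), those most like Khdc3 were Tmod3, Stt3b and Tnrc18 (0.90, 0.87 and 0.87), and those most like Padi6 were Usp31, Abt1 and Ormdl2 (0.88, 0.87 and 0.85). Over all pairs with a member the median rho was 0.035. The highest of 7035 values over only 12 embryos can be this large without any link, and none was tested.

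Male and female samples were then compared within each stage, where a gene was called at an adjusted p under 0.1 and an absolute log2 fold change above 0.5. In eight-cell embryos 5 members were tested and 0 were called, beside 0.264% of 9087 genes. None of the 5 reached an unadjusted p of 0.05. DESeq2 gave an adjusted p for Khdc3 and Padi6 only and called neither. Khdc3 had the smallest unadjusted p, with 300.3 ± 85.2 CPM in male embryos and 224 ± 118 CPM in female embryos (SD, n = 6 each) and a log2 fold change of male over female of 0.39 ± 0.30 (adjusted p = 1.00). The ranges of both sexes overlapped for all 8 members.

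In ES lines, Ooep was the 1 member called among 5 tested, beside 9.50% of 12678 genes. The female lines had 170 and 143 CPM and the male lines 62.5 and 68.2 CPM, with a log2 fold change of male over female of −1.30 ± 0.12 (adjusted p = 0.0104). An exact two-sided permutation test of 2 lines against 2 cannot go below p = 0.333, the value found. Without female line 3 the log2 fold change was −1.18 (adjusted p = 0.210) and without female line 4 it was −1.42 (adjusted p = 0.262), so the call, but not the size of the difference, was lost. With 1 female line left, the spread in both fits comes from the 2 male lines, and edgeR called 0 genes of all tested (1290 and 1163 genes at an unadjusted p under 0.05). Each line is 1 derivation, and a difference between sexes and one between lines cannot be told apart with 2 lines each. Khdc3 went the other way, with 24.8 and 37.2 CPM in male and 21.3 and 10.55 CPM in female lines, and did not pass (log2 fold change 0.92 ± 0.36, adjusted p = 0.198). Padi6, too low to be tested, had 4 reads in male and 17 reads in female lines.

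In fetal liver, Zbed3 was called and Tle6 was not, among 2 tested, beside 4.64% of 12930 genes. Zbed3 had 4.23 ± 0.94 CPM in the male and 2.81 ± 0.62 CPM in the female livers (SD, n = 12 each). The lowest, median and highest males were at 2.58, 4.197 and 6.02 CPM and the females at 2.02, 2.73 and 4.35 CPM, so the groups overlapped. The log2 fold change was 0.58 ± 0.13 (adjusted p = 0.00169). The share of counted reads that fell outside genes also differed by sex in these livers, at 39.9% to 49.0% in males and 34.1% to 38.1% in females, without overlap. With that share as a covariate, an alternative chosen after seeing the data, the log2 fold change was 0.27 (adjusted p = 0.973) and 9 genes were called in all, so that sex and this property of the libraries cannot be told apart. In adult liver none of the members passed the filter (9.49% of 10372 genes were called). Zbed3 had 1.26 ± 0.71 CPM in adult males and 1.74 ± 0.98 CPM in adult females. The difference of the sex effects between fetal and adult liver was tested in all 48 livers and gave a log2 value of 1.00 ± 0.34 (adjusted p = 0.0240).

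**Figure D5:**
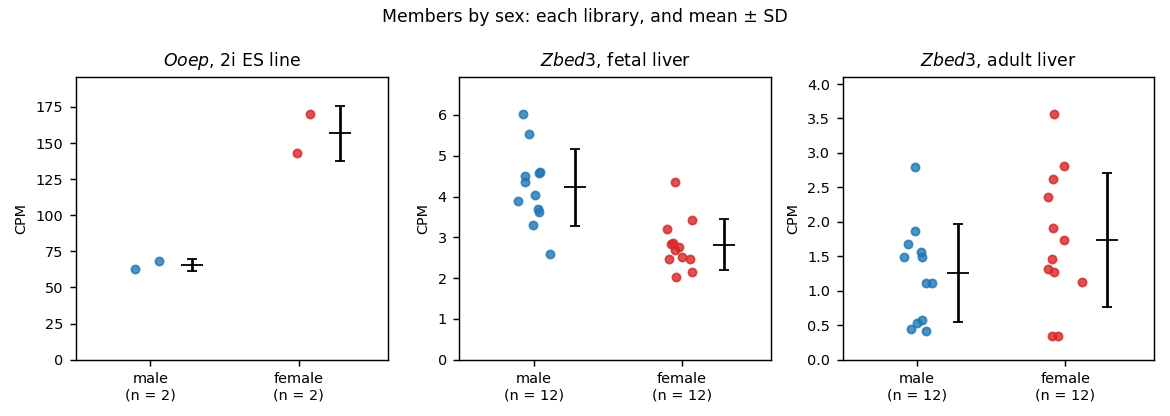
CPM of Ooep in ES lines and of Zbed3 in fetal and adult livers (vertical axes) by sex (horizontal axis), each library as a point and mean ± SD beside it. Both female ES lines lie above both male lines for Ooep, and Zbed3 in fetal liver is higher in males on average with overlapping ranges.

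Genes related to the members by family or function were set beside them. Of 16 other Nlrp family genes, 10 were tested between embryos and ES lines, 5 were called higher in embryos, 1 was called lower and 4 were not called. Of all genes tested there, 21.5% were called higher and 31.4% lower. The median log2 fold change of the list was 3.65 with genes at 3 or fewer reads held at their bound. Against the livers the median log2 fold change of this list was below 0. It was −1.46 over 7 genes tested against fetal liver, 2 called higher and 4 lower in embryos, beside −1.12 over all genes. There 23.4% of all genes were called higher and 51.1% lower. It was −2.13 over 5 genes tested against adult liver, 2 higher and 3 lower, beside −0.77 over all genes. There 28.7% of all genes were called higher and 47.3% lower. Nlrp14, an oocyte-enriched family member, had 24.1 CPM on average in embryos and was present in all 12, at 12.2 to 40.0 CPM. Its log2 fold change over ES lines was 6.51 ± 0.61 (adjusted p = 9.33e-08). Nlrp12 was higher in embryos than in ES lines as well, by 5.40 ± 1.01 (adjusted p = 2.15e-04), but its mean of 10.1 CPM in embryos stood beside 14.8 CPM in fetal and 44.2 CPM in adult liver. Nlrp9c had reads in 7 of 12 embryos and 0 in ES lines. Nlrp4g, which shares stretches of sequence with Nlrp4f, was lower in embryos like Nlrp4f, with a log2 fold change of −4.67 ± 1.59 (adjusted p = 0.0185), with 2.40 to 3.37 CPM in ES lines and reads in 1 embryo only.

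Among 16 paralogs of the other members, 13 were tested, 3 were called higher and 7 lower in embryos, with a median of −1.86. Of all genes tested, 21.5% were called higher and 31.4% lower. Khdc1a and Khdc1b, KH-domain relatives of Khdc3 and Ooep, were higher in embryos by 8.54 ± 0.49 (adjusted p = 3.13e-10) and 8.44 ± 0.99 (adjusted p = 1.53e-06). Khdc1a had 86.9 to 346 CPM in embryos and at most 0.972 CPM in ES lines, the reverse of Ooep. Padi4, a deiminase related to Padi6, was lower in embryos, with a log2 fold change of −5.25 ± 1.16 (adjusted p = 9.27e-04). The Groucho family member Aes was lower too, at 4.93 CPM in embryos and 82.7 CPM in ES lines on average.

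The list of 13 partners and effectors holds proteins that bind members or act with them, such as UHRF1 and DNMT1, cofilins, Axin and proteins of the 14-3-3 family. All 13 were tested, 2 were called higher and 5 lower in embryos, with a median of 0.21. Of all genes tested, 21.5% were called higher and 31.4% lower. Uhrf1 and Dnmt1, which maintain DNA methylation, were lower in embryos, with log2 fold changes of −5.57 ± 0.39 (adjusted p = 2.72e-09) and −3.50 ± 0.30 (adjusted p = 3.94e-08). Ctnnb1, the gene of beta-catenin, was lower with −1.59 ± 0.14 and Ywhae, a gene of the same 14-3-3 family, higher by 1.63 ± 0.19.

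Of 6 oocyte transcription factors, 3 were tested. Nobox had reads in 5 of 12 embryos, up to 8.15 CPM, and its log2 fold change of 2.98 ± 1.95 did not pass (adjusted p = 0.198). Sohlh2 was lower in embryos, with a log2 fold change of −7.12 ± 1.26 (adjusted p = 1.36e-04) and Taf4b was higher with 1.64 ± 0.23 (adjusted p = 1.15e-05). Of 20 other maternal effect and oocyte genes, 17 were tested, 12 were called higher in embryos, 1 lower and 4 not. Of all genes tested, 21.5% were called higher and 31.4% lower. The median of the list was 5.20 with genes at 3 or fewer reads held at their bound. Dppa3, a maternal protein that guards DNA methylation in the zygote, had 2016 to 3664 CPM in embryos and 44.5 to 139 CPM in ES lines. Gdf9, an oocyte growth factor, and the zona gene Zp3 were higher in embryos by 6.74 ± 0.60 and 2.41 ± 0.36.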

How the data were processed

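The authors deposited raw counts of reads per gene for each library, which had been aligned to mm10 with TopHat 2.0.4 and Bowtie2 2.1.0, cleared of duplicates with Picard and counted with HTSeq. The strand setting of the counting is not given in the sources used here. The 5 summary lines of each file were left out of library totals and tests, and no gene row was blank. From the counts, CPM were computed on library totals. Stages were compared in pairs with edgeR 4.0.16 in R 4.3.3 (TMM, filterByExpr, robust quasi-likelihood F test, two-sided, sex label as covariate), and sexes within a stage with the same test without a covariate. P-values were adjusted by Benjamini-Hochberg over all genes tested. The scripts were tested on simulated data. The 8 members and the lists of related genes were chosen with earlier results of these data known. All members are named. Of each list, at most 4 genes with the smallest adjusted p between embryos and ES lines are named, and for each member of at least 10 mean CPM in embryos the 3 genes most like it. Promoters came from RefSeq on GRCm38.p6 and gene positions from GENCODE on GRCm38. Where the labels do not say that samples came from separate animals or cultures, p-values measure only the spread between these samples, which may be technical. Alternatives were DESeq2 1.42.0, limma 3.58.1 with a variance per stage, other scalings, no filter, no covariate, a block for the replicate number and leaving out libraries.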

Additional observations from a re-analysis of the deposited data

Results flagged for a closer look

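Levels in the 16 groups of 4 to 10 samples with any spread (the 8 members in male and in female embryos) were screened for a sample far from the others by Dixon's criterion. Chance alone meets it in about 1 in 20 groups of normally distributed values. It was met in 3 groups, each with 0 reads in 4 of 6 embryos, so that rate does not hold for them. Nlrp2 was at 4.40 CPM in male embryo 4, while the next male embryo had 0.215 CPM. It was at 6.52 CPM in female embryo 9, with 0.534 CPM in the next female embryo. Nlrp4f was at 10.98 CPM in female embryo 11, with 3.72 CPM in the next female embryo and 0 in the other 4. Amplification of these libraries and differences between embryos were not tested apart.

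Zbed3 differed between fetal and adult liver in its sex effect, by an interaction term of 1.00 on the log2 scale (SE 0.34, adjusted p = 0.0240 over all genes by edgeR's quasi-likelihood test in 48 livers). The mean level was 4.23 CPM in male and 2.81 CPM in female fetal livers, and 1.26 CPM in male and 1.74 CPM in female adult livers, where 24 livers held 95 reads of the gene in all. The sexes also differed without overlap in the share of reads outside genes in fetal liver, and the part of this in the interaction was not tested.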

How the results depend on the processing

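Members called in the comparisons of stages kept their direction under all alternatives that gave a value, and Khdc3, Nlrp5, Padi6 and Ooep kept their calls between embryos and ES lines in 13 of 13. Without any expression filter, all 8 members were tested, and 7 were called higher in embryos than in fetal liver (22.6% of all genes), and 7 higher (27.8%) and 1 lower (44.0%) than in adult liver. Without a covariate, Nlrp5 did not pass the filter against either liver. DESeq2 gave no adjusted p for Nlrp4f between embryos and ES lines. In adult against fetal liver 1 member was called lower under 3 alternatives: Zbed3 without a fold threshold (46.3% of all genes) and with library totals alone (37.1%), and Khdc3 without a filter (25.8%). Reversed signs concerned members that were not called: Zbed3 in ES lines over fetal liver (−0.23 with the replicate block), Tle6 in adult over fetal liver (−0.36 with library totals alone) and Nlrp5 in male over female embryos, which ranged from −0.10 to 0.61 when each embryo was left out. Without a fold threshold, genes called in all rose to 12806 (ES lines and fetal liver), 11536 (adult and fetal liver), 4807 (sexes in fetal liver) and 3400 (sexes in adult liver). Without a filter, the sexes differed in 1057 genes in fetal and 1518 in adult liver. DESeq2 called 64 genes between the sexes in embryos, and leaving out each embryo gave 13 to 30. With the share of reads outside genes as a covariate, chosen after seeing the data, 0 members and 9 genes were called between the sexes in fetal liver. Leaving out each ES line gave 0 to 2 members and 0 to 3070 genes called between the sexes in ES lines, where the lone line is assumed to vary like the others: 0 members without female line 3 or 4, and Ooep and Tle6 without male line 1. Without 1 ES line or embryo 3, 3 or 4 members stayed higher in embryos than in ES lines, beside 19.3% to 21.9% of all genes. Tle6 was the member lost, without male line 2 (adjusted p = 0.0521). The coefficient of variation of Padi6 was 0.259 in the 6 male embryos alone.

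Title numbers are shared between stages but only name samples, and the replicate block was run as an alternative. Same-numbered samples showed little common deviation. The correlation of their deviations was above 0.1 in 0 of 4 pairs of embryos and ES lines, and in 0 of 12 pairs of embryos with either liver. It was above 0.1 in 1 of 4 pairs of ES lines and fetal livers, at 0.115, and in 1 of 24 pairs of adult and fetal livers, at 0.104. The block kept only samples whose number occurs in both stages and had no sex covariate. Against ES lines it held embryos 1 to 4, all male, beside the 4 lines of both sexes. Against each liver it held all 12 embryos beside 12 livers, all male. The effect of blocking was not tested apart from that of this choice of samples. With the replicate block, 3 members were called higher in embryos than in ES lines (15.1% of all genes, Tle6 1.14 on the log2 scale, adjusted p = 0.448). In this fit all 8 members passed the filter against both livers, and 6 were called higher than in fetal liver (22.5%), and 7 higher (28.2%) and 1 lower (46.2%) than in adult liver. Depth limits Nlrp2 and, in livers, Ooep, Padi6, Nlrp4f and Nlrp5, which lie at the floor there.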
